A study of Homo sapiens with 12 samples.

Results

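Integrins are the cell surface receptors through which cells hold on to the extracellular matrix. Each receptor pairs an alpha with a beta subunit, and the pair sets what it binds: ITGB1 pairs with many alpha subunits, ITGAV pairs with several beta subunits, and ITGA6 pairs with ITGB1 or ITGB4. Kidney tubule cells sit on a basement membrane of laminin and collagen, and renal carcinoma cells make many of these receptors.

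The RNA of 10 integrin subunit genes was followed in 786-O, a human clear cell renal cell carcinoma (ccRCC) line that lacks working VHL. The genes were ITGA2, ITGA3, ITGA5, ITGA6, ITGAV, ITGB1, ITGB3, ITGB4, ITGB5 and ITGB8, found by their Ensembl identifiers among 62702 genes of the count table. They were chosen by name, with earlier results of these data known. The groups were a HIF2A knockdown line (shHIF2a), a line with cJUN, JUNB and JUND knocked down together (shJUNs), a YAP and TAZ knockdown line (shYAP/TAZ), and the parental line. HIF2A is a hypoxia-inducible factor that stays active without VHL. The JUN proteins are subunits of AP-1, and YAP and TAZ are transcriptional coactivators that act through TEAD factors. All 4 lines, the parental one included, had 72 h of doxycycline, which switches on the shRNAs, and knockdown lines were selected with up to 3 antibiotics (puromycin, blasticidin and hygromycin) according to how many genes were silenced. A control shRNA line is not part of the data used here, so effects of shRNA expression and of selection cannot be told apart from those of the knockdown. Each group had 3 libraries that the labels call technical replicates, so that p-values measure only the spread between these libraries.

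Libraries were made by BRB-seq, which counts the 3′ ends of polyadenylated RNA, and held 2272459 to 4469956 counts. Levels are CPM, each gene's count set against the library total, with libraries scaled to each other, but not divided by gene length, and 3 counts correspond to 0.671 to 1.32 CPM. The renal marker PAX8 averaged 99.3, 98.8, 101 and 88.6 CPM in shHIF2a, shJUNs, shYAP/TAZ and parental cells. It is 1 of 8 markers listed for the line, and others differed from parental cells in the edgeR test described below. In shHIF2a cells 2 of the 8 were higher and 2 lower, in shJUNs cells 2 and 0, and in shYAP/TAZ cells 1 and 1. The shares of all tested genes that changed were 18.6%, 19.3% and 25.3%. The 4 endothelial markers together summed to 1, 2 and 0 counts in shHIF2a libraries, 0, 0 and 0 in shJUNs, 0, 1 and 4 in shYAP/TAZ and 0, 0 and 3 in parental libraries, with PECAM1 and CDH5 at 0 in all 12. The blood cell gene PTPRC had 1 count in 1 library, but the 7 blood cell markers together reached up to 20 counts in a knockdown library. In parental libraries they summed to 1, 0 and 1 counts. EPAS1, which encodes HIF2A, averaged 15.9 ± 3.57 CPM in shHIF2a cells and 202 ± 59.3 CPM in parental cells (SD, n = 3 each), and it was also lower in shJUNs cells at 36.9 CPM. In shYAP/TAZ cells EPAS1 averaged 113 ± 56.6 CPM, with libraries that overlapped the parental ones. JUND averaged 38.4 CPM in shJUNs cells and 354 CPM in parental cells, against a smaller gap for JUN, with 85.3 CPM in shJUNs cells and 152 CPM in parental cells, and for JUNB, with 113 CPM in shJUNs cells and 191 CPM in parental cells. JUN was as low in shHIF2a cells, at 79.9 CPM. In shYAP/TAZ cells YAP1 averaged 14.1 CPM and WWTR1, which encodes TAZ, 152 CPM, against 65.1 and 310 CPM in parental cells. WWTR1 was above its parental level in shHIF2a cells at 502 CPM and in shJUNs cells at 439 CPM. The shRNA targets thus did not differ in their own lines alone.

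All 10 genes had counts, and 9 had enough for testing. In the parental line ITGB5 was the most counted at 487 CPM, followed by ITGA3 at 264 CPM, ITGB1 at 199 CPM, ITGAV at 162 CPM and ITGB8 at 123 CPM. ITGA5 stood at 47.5 CPM, ITGB3 at 25.1 CPM, ITGA6 at 13.7 CPM, ITGA2 at 7.08 CPM and ITGB4 at 1.65 CPM. Since 3′ counts also depend on how well each 3′ end is captured, this order is one of counts and not of molecules. ITGB4, which pairs with ITGA6 in hemidesmosomes, had 5, 0 and 1 counts in shHIF2a libraries, 11, 9 and 6 in shJUNs libraries, 8, 4 and 3 in shYAP/TAZ libraries, and 7, 3 and 6 in parental libraries, and was not tested.

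**Figure D1:**
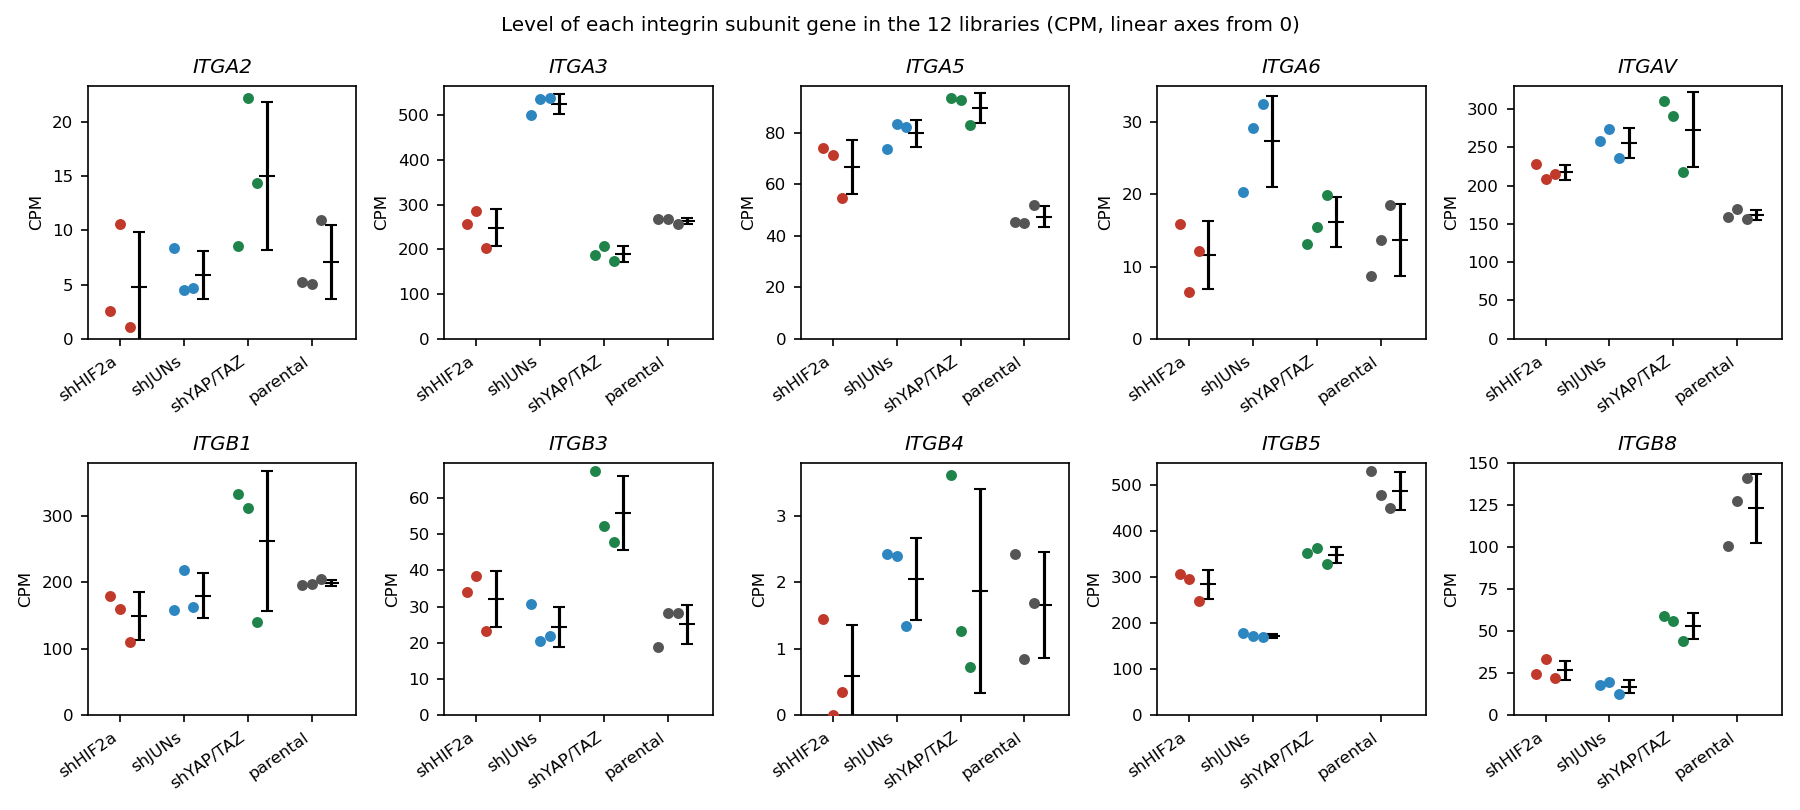
CPM of each of the 10 integrin subunit genes (y axis, linear, from 0) by group (x axis); each point is 1 library, and the bar beside the points is the mean with its SD (n = 3), cut at 0 where it would go below. ITGB8 and ITGB5 lie lower in the libraries of the knockdown groups than in any parental library, ITGAV and ITGA5 lie higher, and ITGA3 is highest in the shJUNs libraries.

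Each knockdown line was compared with the parental line in 1 edgeR quasi-likelihood fit over all 12 libraries and 12301 genes, calling a gene changed at a Benjamini-Hochberg adjusted p below 0.05. The 3 comparisons share the parental libraries and are not independent of each other. In shHIF2a cells 3 of the 9 tested subunits changed, ITGAV upwards and ITGB5 and ITGB8 downwards, where 18.6% of all tested genes changed (9.84% higher and 8.8% lower). In shJUNs cells 5 changed, with ITGA3, ITGA5 and ITGAV higher and ITGB5 and ITGB8 lower, beside 19.3% of all genes (10.3% higher and 8.93% lower). In shYAP/TAZ cells 6 changed, with ITGA5, ITGAV and ITGB3 higher and ITGA3, ITGB5 and ITGB8 lower, beside 25.3% of all genes (13% higher and 12.3% lower). With 9 genes these counts describe the subunits and do not set them apart from other genes. The median log2 change of the 9 genes was -0.25 in shHIF2a, -0.05 in shJUNs and 0.39 in shYAP/TAZ, while over all tested genes it was 0.01, -0.00 and 0.02.

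**Figure D2:**
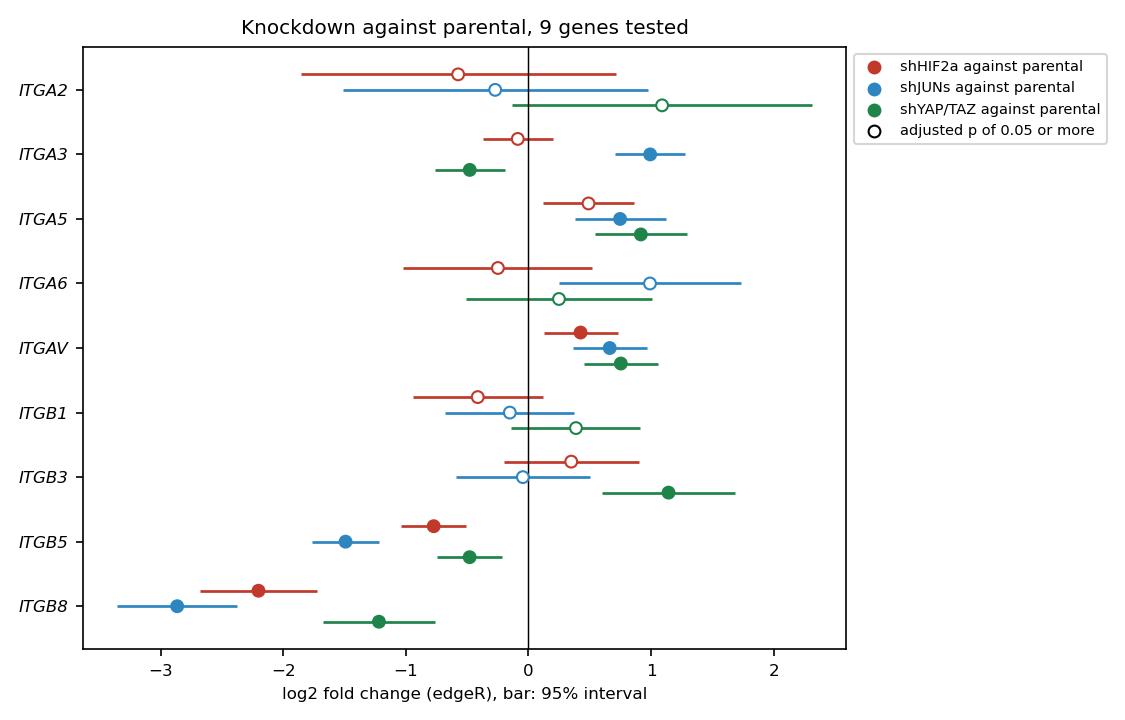
Log2 fold change (x axis, edgeR) of the 9 tested subunits (y axis) in shHIF2a, shJUNs and shYAP/TAZ cells against parental cells, with 95% intervals as bars; filled points passed an adjusted p of 0.05. ITGB8 shows the lowest values, from -2.86 to -1.22, and ITGB5 lies to the left of 0 in each comparison.

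The beta subunits ITGB8 and ITGB5 pair only with ITGAV. The receptor of ITGAV and ITGB8 binds latent TGF-beta and helps to activate it, and that of ITGAV and ITGB5 binds vitronectin. ITGB8 lies on chromosome 7 (hg38 chr7:20330702-20415754, plus strand). It had 24.6, 33.3 and 22.3 CPM in shHIF2a libraries, 18.1, 19.9 and 12.7 CPM in shJUNs libraries, 59.2, 55.8 and 44.2 CPM in shYAP/TAZ libraries, and 100, 127 and 141 CPM in parental libraries. No knockdown library reached the lowest parental one. In bulk RNA, fewer cells with a transcript and less of it per cell cannot be told apart. By edgeR, ITGB8 was 4.60-fold lower in shHIF2a cells (log2 -2.20, SE 0.23, adjusted p = 6.72e-07), 7.28-fold lower in shJUNs cells (log2 -2.86, SE 0.24, adjusted p = 1.65e-08) and 2.33-fold lower in shYAP/TAZ cells (log2 -1.22, SE 0.22, adjusted p = 0.000265). Its antisense neighbour ITGB8-AS1, whose exons overlap it, is given in CPM without the scaling between libraries. ITGB8-AS1 averaged 7.25, 9.41 and 8.11 CPM in the shHIF2a, shJUNs and shYAP/TAZ groups and 10.6 CPM in the parental group. The strand setting of the counting is not stated, so reads of the pair cannot be told apart.

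ITGB5, on chromosome 3 (hg38 chr3:124761948-124901418, minus strand), had 308, 297 and 250 CPM in shHIF2a libraries, 178, 172 and 170 CPM in shJUNs libraries, 353, 365 and 330 CPM in shYAP/TAZ libraries, and 532, 479 and 450 CPM in parental libraries. The groups did not overlap with the parental one, nor shJUNs with any other. The edgeR fold change of ITGB5 was 1.71-fold lower in shHIF2a cells (log2 -0.77, SE 0.13, adjusted p = 0.000205), 2.81-fold lower in shJUNs cells (log2 -1.49, SE 0.13, adjusted p = 4.29e-08) and 1.39-fold lower in shYAP/TAZ cells (log2 -0.48, SE 0.13, adjusted p = 0.00776). Groups whose libraries did not overlap were common: 36.1% of tested genes for shHIF2a, 39.5% for shJUNs and 36.2% for shYAP/TAZ against parental. Between knockdown groups that share was 31.2% for shJUNs against shHIF2a, 32.2% for shYAP/TAZ against shHIF2a and 33.3% for shYAP/TAZ against shJUNs. Across the 12 libraries the log2 CPM of ITGB8 and ITGB5 had a Pearson r of 0.933, given as a description, since the 12 points are 4 groups of 3.

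Since these genes moved together, bases before a start of each are shown (RefSeq, GRCh38.p14, gene strand, stopping before the first exon in the count table). The capitals would mark the motifs searched on both strands in the 250 bases before a start: TGANTCA for AP-1, GGAATG for TEAD and ACGTG for the HIF core. Neither stretch holds one. The ITGB8 stretch is only the first 52 of the 250 bases of its window, and further ITGB5 starts are not printed. The first covers chr7:20330650-20330701 on the plus strand and the second chr3:124901419-124901668 on the minus strand.
ITGB8: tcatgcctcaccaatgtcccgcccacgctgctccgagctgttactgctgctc
ITGB5: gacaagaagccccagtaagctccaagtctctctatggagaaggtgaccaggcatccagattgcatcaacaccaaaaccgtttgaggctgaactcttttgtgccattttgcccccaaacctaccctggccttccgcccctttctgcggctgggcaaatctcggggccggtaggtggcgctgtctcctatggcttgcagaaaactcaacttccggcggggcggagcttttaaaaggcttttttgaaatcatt
RefSeq starts were found for 7 of the 10 genes (12 starts), and not for ITGA3, ITGB3 and ITGB4. Of the 12 windows, 0 held TGANTCA, against 4.47% of the 13968 promoters of tested genes and 6.57% of all 35116. GGAATG was in 2 of 12 (at ITGA5 and ITGB1), against 9.80% and 11.9%. ACGTG was in 2 of 12, both of them ITGA6 starts, against 22.6% and 18.5%. A missing match says only that these letters are not in this window.

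The alpha subunit that ITGB8 and ITGB5 pair with went the other way. ITGAV (hg38 chr2:186590010-186680901, plus strand) had 228, 209 and 215 CPM in shHIF2a libraries, 259, 274 and 236 CPM in shJUNs libraries, 310, 291 and 218 CPM in shYAP/TAZ libraries, and 160, 169 and 157 CPM in parental libraries. The knockdown libraries lay above the parental ones, and shYAP/TAZ replicate 3 was the lowest of its group. The rise was 1.58-fold in shJUNs cells (log2 0.66, SE 0.15, edgeR adjusted p = 0.00243) and 1.69-fold in shYAP/TAZ cells (log2 0.75, SE 0.15, adjusted p = 0.000559). In shHIF2a cells it was 1.34-fold (log2 0.43, SE 0.15, edgeR adjusted p = 0.0445), and this call was lost without any 1 of 10 of the 12 libraries, with adjusted p between 0.0619 and 0.124.

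ITGA5 is the alpha subunit of the classical fibronectin receptor, which it forms with ITGB1. It lies on chromosome 12 (hg38 chr12:54395261-54419266, minus strand) and had 73.9, 71.2 and 54.8 CPM in shHIF2a libraries, 73.6, 83.2 and 82.4 CPM in shJUNs libraries, 93.5, 92.6 and 83.1 CPM in shYAP/TAZ libraries, and 45.2, 45.1 and 52.1 CPM in parental libraries. No parental library reached a knockdown library. ITGA5 rose 1.68-fold in shJUNs cells (log2 0.75, SE 0.18, edgeR adjusted p = 0.00503) and 1.89-fold in shYAP/TAZ cells (log2 0.92, SE 0.18, adjusted p = 0.000651). In shHIF2a cells the log2 difference was 0.49 (SE 0.18, edgeR adjusted p = 0.0612), which did not pass; without shHIF2a replicate 3 it was 0.61 with an adjusted p of 0.0367. The Pearson r of ITGAV with ITGA5 over the 12 libraries was 0.898, again a description. Their starts are shown for the same reason as above, with the single GGAATG of ITGA5, 82 bases before its start, in capitals. The ITGAV stretch is chr2:186589806-186590009 on the plus strand, the ITGA5 one chr12:54419267-54419516 on the minus strand. A further ITGAV start is not printed.
ITGAV: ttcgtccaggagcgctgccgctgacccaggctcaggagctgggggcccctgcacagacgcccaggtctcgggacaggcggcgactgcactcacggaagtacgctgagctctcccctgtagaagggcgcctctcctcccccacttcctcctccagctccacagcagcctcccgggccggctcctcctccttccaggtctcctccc
ITGA5: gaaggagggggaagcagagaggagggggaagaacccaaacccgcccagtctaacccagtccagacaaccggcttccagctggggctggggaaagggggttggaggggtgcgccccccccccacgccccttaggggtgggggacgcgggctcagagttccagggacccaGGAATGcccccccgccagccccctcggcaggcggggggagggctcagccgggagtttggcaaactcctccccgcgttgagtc

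ITGA3 pairs with ITGB1 to bind laminin. It is on chromosome 17 (hg38 chr17:50055968-50090481, plus strand), as are ITGB3 (chr17:47253827-47313743) and ITGB4 (chr17:75721328-75757818). ITGA3 had 257, 285 and 203 CPM in shHIF2a libraries, 500, 537 and 538 CPM in shJUNs libraries, 187, 208 and 174 CPM in shYAP/TAZ libraries, and 268, 268 and 256 CPM in parental libraries. The shJUNs libraries stood above the 9 others, and the shYAP/TAZ libraries below the parental ones. ITGA3 rose 1.99-fold in shJUNs cells (log2 0.99, SE 0.14, edgeR adjusted p = 2.10e-05) and fell 1.39-fold in shYAP/TAZ cells (log2 -0.48, SE 0.14, adjusted p = 0.0134). In shHIF2a cells the log2 difference of ITGA3 was -0.09 with a 95% interval of -0.37 to 0.20 (edgeR adjusted p = 0.713).

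ITGA6 is another laminin-binding alpha subunit (hg38 chr2:172427354-172506459). It had 15.9, 6.53 and 12.2 CPM in shHIF2a libraries, 20.3, 29.3 and 32.5 CPM in shJUNs libraries, 13.1, 15.5 and 19.9 CPM in shYAP/TAZ libraries, and 8.69, 13.7 and 18.6 CPM in parental libraries. The shJUNs libraries were the highest 3, yet the log2 difference of 0.99 from parental cells (95% interval 0.25 to 1.73) missed the threshold with an edgeR adjusted p of 0.0544. Without parental replicate 3 it was 1.28 with an adjusted p of 0.0365, and the adjusted p was also under the threshold without shHIF2a replicate 2 (0.0446), shYAP/TAZ replicate 1 (0.0447) or shYAP/TAZ replicate 3 (0.0471). ITGA2, which forms a collagen receptor with ITGB1 (hg38 chr5:52989340-53094779), had 2.60, 10.6 and 1.05 CPM in shHIF2a libraries, 8.40, 4.52 and 4.67 CPM in shJUNs libraries, 8.59, 22.2 and 14.4 CPM in shYAP/TAZ libraries, and 5.21, 5.04 and 10.98 CPM in parental libraries. Each knockdown group overlapped the parental one, and none of the 3 comparisons with parental cells passed for ITGA2. Its log2 difference in shYAP/TAZ cells had an interval of -0.13 to 2.31.

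ITGB3, which pairs with ITGAV to bind vitronectin and fibronectin, had 34.1, 38.5 and 23.4 CPM in shHIF2a libraries, 30.7, 20.5 and 21.8 CPM in shJUNs libraries, 67.3, 52.3 and 47.8 CPM in shYAP/TAZ libraries, and 18.8, 28.3 and 28.2 CPM in parental libraries. The shYAP/TAZ libraries stood above the other 9. ITGB3 rose 2.21-fold in shYAP/TAZ cells (log2 1.14, SE 0.26, edgeR adjusted p = 0.0026), while the log2 differences of 0.35 in shHIF2a cells (adjusted p = 0.388) and -0.05 in shJUNs cells (adjusted p = 0.936) did not pass. ITGB3 was thus the only one of the 4 tested beta subunits among the 10 genes with a called rise in a comparison with parental cells.

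ITGB1, the beta subunit shared by the most receptors (hg38 chr10:32887273-33005792, minus strand), had 179, 160 and 110 CPM in shHIF2a libraries, 158, 219 and 162 CPM in shJUNs libraries, 333, 311 and 140 CPM in shYAP/TAZ libraries, and 196, 198 and 204 CPM in parental libraries. In the shYAP/TAZ group replicates 1 and 2 lay above every other library and replicate 3 below the parental ones. ITGB1 passed in no comparison with parental cells: the log2 differences were -0.41 in shHIF2a (edgeR adjusted p = 0.275), -0.15 in shJUNs (0.733) and 0.39 in shYAP/TAZ (0.286). Without shYAP/TAZ replicate 3 the last became 0.68 with an adjusted p of 0.00701. ITGB1-DT, whose exons overlap ITGB1 on the opposite strand, is given in CPM without the scaling between libraries. Its averages were 15.9, 6.91 and 6.25 CPM in shHIF2a, shJUNs and shYAP/TAZ cells and 17.5 CPM in parental cells. These were a small part of the ITGB1 level.

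The mix of subunits therefore differed between lines. Among the counts of the 5 alpha genes, ITGA3 made up 41.7 to 49.0% in shHIF2a libraries, 57.8 to 60.2% in shJUNs libraries, 30.5 to 34.1% in shYAP/TAZ libraries and 51.8 to 55.0% in parental libraries. ITGAV took 35.8 to 44.3%, 26.4 to 30.0% and 42.8 to 50.7% of the alpha counts in shHIF2a, shJUNs and shYAP/TAZ libraries, against 31.7 to 33.8% in parental libraries, so that ITGAV outnumbered ITGA3 in shYAP/TAZ libraries and the reverse held in parental and shJUNs libraries. In shHIF2a libraries the log2 ratio of ITGA3 to ITGAV ran from -0.09 to 0.45.

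Among the 5 beta genes, ITGB8 held 4.48 to 6.29% of counts in shHIF2a libraries, 3.45 to 4.68% in shJUNs libraries, 7.10 to 7.85% in shYAP/TAZ libraries and 11.8 to 17.1% in parental libraries. ITGB5 held 56.2 to 61.6% in shHIF2a, 39.6 to 46.2% in shJUNs, 43.2 to 58.6% in shYAP/TAZ and 54.5 to 62.6% in parental libraries. The summed beta level was 494 ± 77.3 CPM in shHIF2a cells, 396 ± 33.4 CPM in shJUNs cells, 721 ± 138 CPM in shYAP/TAZ cells and 836 ± 11.9 CPM in parental cells (SD, n = 3 each). The summed alpha level was 548 ± 53.9 CPM in shHIF2a cells, 894 ± 33.5 CPM in shJUNs cells, 583 ± 65.0 CPM in shYAP/TAZ cells and 494 ± 7.42 CPM in parental cells. Beta counts exceeded alpha counts in the parental and shYAP/TAZ libraries, and the reverse held in the shHIF2a and shJUNs libraries. The sum over the 10 genes was 1290 ± 61.8 CPM in shJUNs cells and 1330 ± 8.73 CPM in parental cells. RNA shares do not give receptor pairs on the cell surface.

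**Figure D3:**
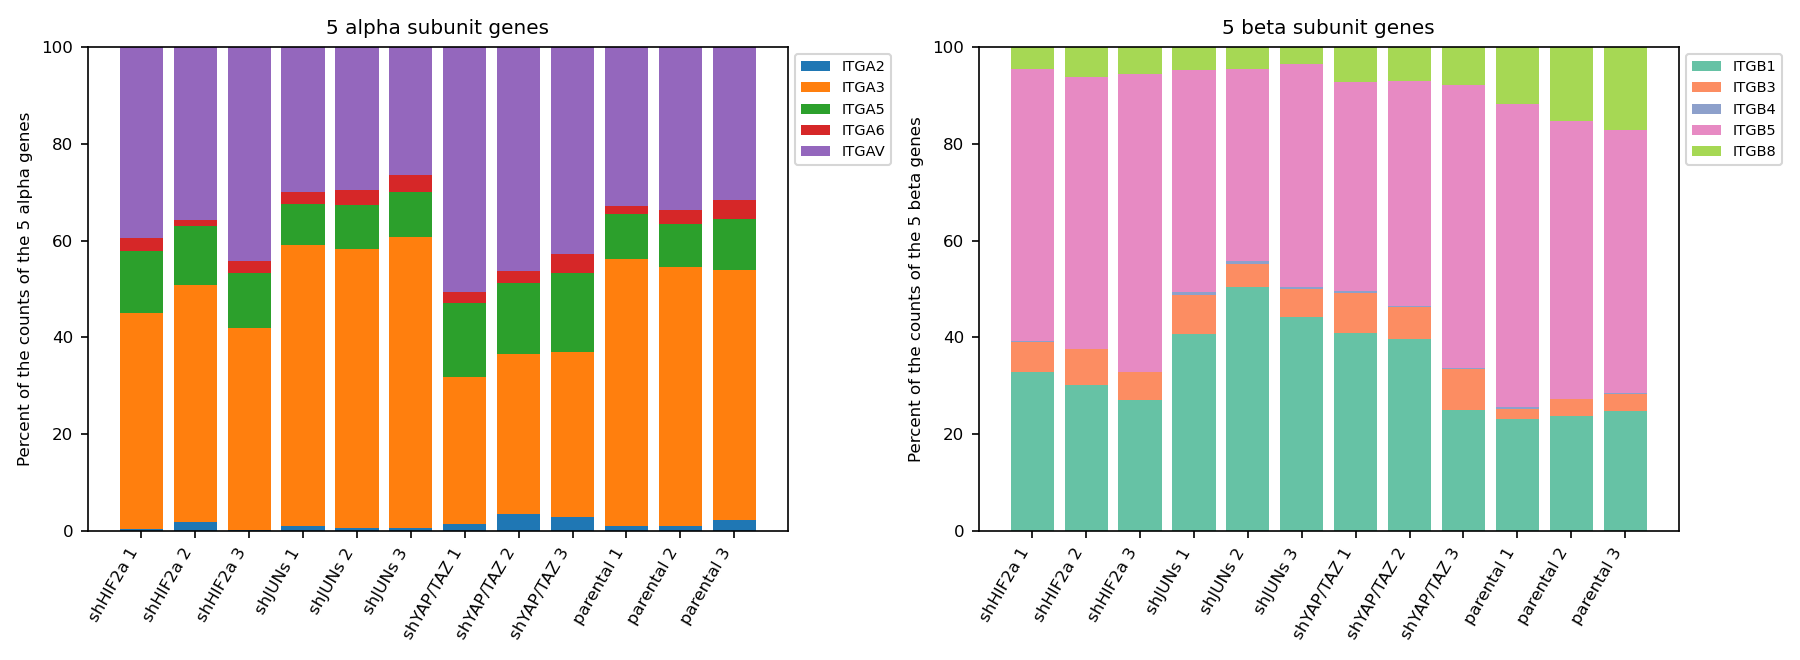
Percent of the counts (y axis, from 0 to 100) of the 5 alpha subunit genes (left) and the 5 beta subunit genes (right) held by each gene, in each of the 12 libraries (x axis, group and replicate number). The ITGA3 share is lowest in shYAP/TAZ libraries, at 30.5 to 34.1%, and the ITGB8 share is highest in parental libraries, at 11.8 to 17.1%.

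The knockdown lines were also compared with each other, in the same fit over all 12 libraries. In shJUNs cells against shHIF2a cells 3 subunits changed, where 7.53% of all tested genes did (4.36% higher and 3.17% lower). ITGA3 was 2.11-fold higher in shJUNs cells (log2 1.08, SE 0.14, edgeR adjusted p = 2.10e-05) and ITGB5 was 1.65-fold lower (log2 -0.72, SE 0.13, adjusted p = 0.00101). ITGA6 was 2.36-fold higher (log2 1.24, SE 0.36, edgeR adjusted p = 0.0375), a call that was lost without shHIF2a replicate 2 or 3 or shJUNs replicate 2 or 3, with adjusted p from 0.0829 to 0.177. ITGB8 differed by -0.66 with an adjusted p of 0.0957, so that its lower level in shJUNs cells did not separate from that in shHIF2a cells.

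In shYAP/TAZ cells against shHIF2a cells 3 subunits were higher, where 18.4% of all tested genes changed (9.71% higher and 8.72% lower). ITGB8 was 1.98-fold higher in shYAP/TAZ cells (log2 0.98, SE 0.23, edgeR adjusted p = 0.0042). ITGB1 (log2 0.80, adjusted p = 0.0341) and ITGB3 (log2 0.79, adjusted p = 0.0359) also passed by edgeR. Leaving out parental replicate 1, shHIF2a replicate 2 or 3, or shYAP/TAZ replicate 1 or 2 ended the ITGB1 call, with adjusted p from 0.0546 to 0.138. The ITGB3 call was lost without shHIF2a replicate 1 or 3 or shYAP/TAZ replicate 1 or 2, with adjusted p from 0.0661 to 0.155. Of the subunits that missed the threshold, ITGA2 (log2 1.66, edgeR adjusted p = 0.0609) passed without shHIF2a replicate 2 (3.02, 0.0051) or shYAP/TAZ replicate 1 (1.93, 0.0376), and ITGA3 (log2 -0.39, adjusted p = 0.0516) passed without parental replicate 1 (-0.38, 0.0433) or shHIF2a replicate 3 (-0.52, 0.0157). ITGAV (log2 0.33, adjusted p = 0.123) passed without shYAP/TAZ replicate 3 (0.47, 0.020).

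In shYAP/TAZ cells against shJUNs cells 4 subunits changed, beside 16.1% of all tested genes (7.87% higher and 8.27% lower). ITGA3 was 2.77-fold lower in shYAP/TAZ cells (log2 -1.47, SE 0.14, edgeR adjusted p = 1.21e-07). ITGB8 was 3.13-fold higher (log2 1.65, SE 0.23, edgeR adjusted p = 3.23e-05), ITGB3 2.28-fold higher (log2 1.19, SE 0.26, adjusted p = 0.00289) and ITGB5 2.02-fold higher (log2 1.01, SE 0.13, adjusted p = 8.43e-06). ITGB1 differed by 0.54 (edgeR adjusted p = 0.163), and by 0.84 without shYAP/TAZ replicate 3 (adjusted p = 0.00183). ITGAV and ITGA5 did not separate here, with log2 differences of 0.09 (95% interval -0.21 to 0.39) and 0.17 (-0.19 to 0.53).

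Placed in order, ITGB5 ran shJUNs, shHIF2a, shYAP/TAZ, parental from low to high, and only its shHIF2a and shYAP/TAZ levels were not separated by the test (edgeR adjusted p = 0.119). ITGB8 ran in the same order, with shJUNs and shHIF2a as the neighbours that the test did not separate. ITGA3 ran shYAP/TAZ, shHIF2a, parental, shJUNs, and only the step from parental to shJUNs separated neighbours. For ITGAV and ITGA5 the order was parental, shHIF2a, shJUNs, shYAP/TAZ, and the test separated no 2 knockdown groups. In the test of any difference among the 4 groups 7 of the 9 subunits passed, beside 38.7% of all tested genes, and ITGB1 (edgeR adjusted p = 0.0764) and ITGA2 (adjusted p = 0.0871) did not.

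**Figure D4:**
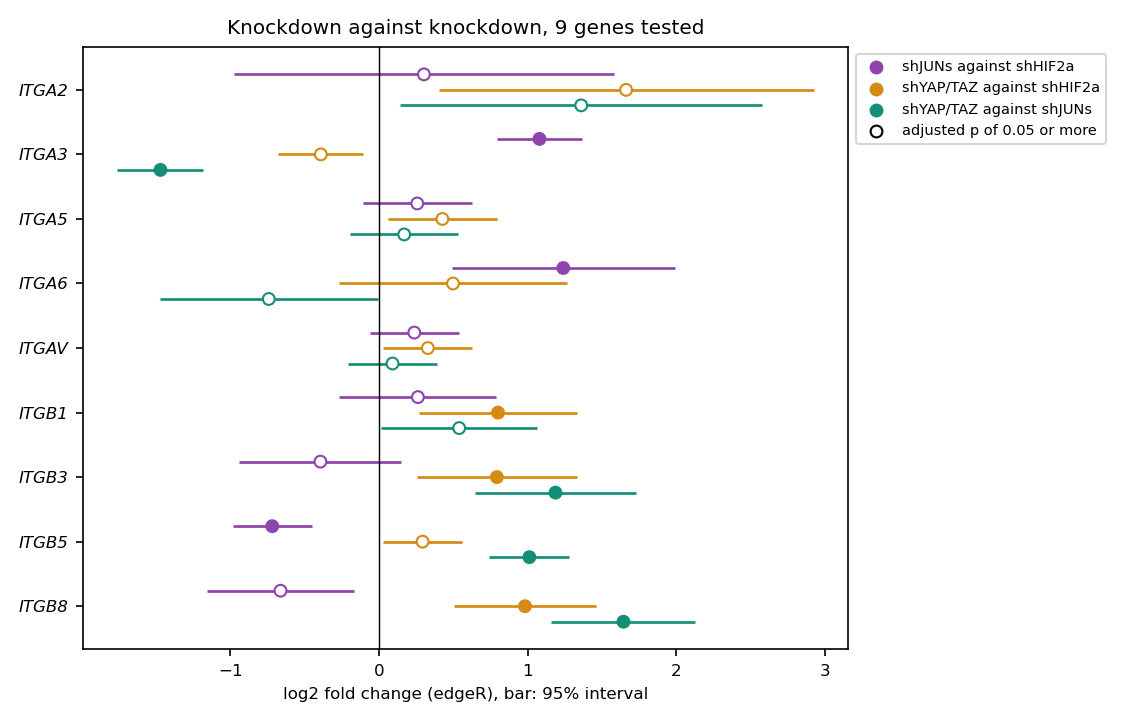
Log2 fold change (x axis, edgeR) of the 9 tested subunits (y axis) between the knockdown lines, with 95% intervals as bars; filled points passed an adjusted p of 0.05. ITGA3 runs from -1.47 for shYAP/TAZ against shJUNs to 1.08 for shJUNs against shHIF2a, and the ITGAV points lie between 0.09 and 0.33.

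Genes averaging 10 CPM or more were used, leaving out the 10 subunits and genes without a plain symbol (capital letters and digits only). The genes left, 8593, were ranked by how closely their log2 CPM followed a subunit over the 12 libraries. The closest are given, as descriptions, for the 3 subunits with the smallest 4-group p. For ITGB8 these were TNRC6C (Pearson r 0.975), PMEPA1 (0.945) and AK4 (0.932). TNRC6C, a component of miRNA silencing complexes, averaged 8.69, 8.29 and 17.9 CPM in shHIF2a, shJUNs and shYAP/TAZ cells and 28.7 CPM in parental cells. For ITGB5 they were STEAP3 (0.957), PMEPA1 (0.952) and RACK1 (0.946), so PMEPA1, a known TGF-beta target, was near both beta genes, with 195, 152 and 263 CPM in shHIF2a, shJUNs and shYAP/TAZ cells and 329 CPM in parental cells. For ITGA3 they were PCSK5 (0.980), SLC25A3 (0.948) and PLCD3 (0.934). PCSK5, a proprotein convertase, averaged 19.4 CPM in shHIF2a cells, 134 CPM in shJUNs cells, 5.37 CPM in shYAP/TAZ cells and 18.4 CPM in parental cells.

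Of 16 other integrin subunits, 4 had enough counts for testing. ITGB6, an epithelial partner of ITGAV that also activates latent TGF-beta, had 14.4, 12.7 and 13.6 CPM in shHIF2a libraries, 23.4, 15.7 and 11.4 CPM in shJUNs libraries, 13.1, 30.1 and 6.48 CPM in shYAP/TAZ libraries, and 2.09, 5.04 and 4.51 CPM in parental libraries. All knockdown libraries lay above the parental ones, and ITGB6 rose in shHIF2a (log2 1.78, edgeR adjusted p = 0.0164), shJUNs (2.09, 0.0049) and shYAP/TAZ cells (2.06, 0.0042). The shHIF2a call was lost without parental replicate 1 (1.49, adjusted p = 0.0783), and the shYAP/TAZ call without shYAP/TAZ replicate 2 (1.27, adjusted p = 0.0826).

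ITGA4, a partner of ITGB1 best known from white blood cells, had 36, 48 and 28 counts in shJUNs libraries and 1 count in the 9 other libraries, in shHIF2a replicate 3. The shJUNs level was at least 30.0-fold higher than in parental cells, taking the parental sum at 3 counts over the group, and at least 28.5-fold higher than in shYAP/TAZ cells on the same floor, and the edgeR adjusted p against parental cells was 0.000624. Of 7 blood cell markers, PTPRC, CD3E and ITGAM had 0 counts in the shJUNs libraries, as did ITGAL. The 7 together summed to 9, 3 and 8 counts in shHIF2a libraries, 5, 20 and 4 counts in shJUNs libraries, 2, 9 and 17 counts in shYAP/TAZ libraries, and 1, 0 and 1 counts in parental libraries, mostly from the leukocyte integrin genes ITGAX and ITGB2, and their part in the ITGA4 result was not tested. ITGA1, a collagen-binding partner of ITGB1, had 4.91, 5.59 and 6.28 CPM in shHIF2a libraries, 8.40, 11.4 and 10.0 CPM in shJUNs libraries, 18.5, 8.56 and 10.8 CPM in shYAP/TAZ libraries and 4.52, 4.48 and 3.94 CPM in parental libraries. It rose in shYAP/TAZ cells (log2 1.53, edgeR adjusted p = 0.0154), a call lost without shYAP/TAZ replicate 1 (1.17, adjusted p = 0.0862). Its shHIF2a and shJUNs libraries also lay above the parental ones, and in shJUNs cells the log2 difference of 1.20 missed the threshold (edgeR adjusted p = 0.0634; 0.0400 with DESeq2). The fourth gene, ITGAE, averaged 50.8, 58.0 and 61.5 CPM in shHIF2a, shJUNs and shYAP/TAZ cells and 48.8 CPM in parental cells and passed in none of the 3 comparisons with parental cells.

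The ligands that these receptors hold on to were counted next, from a list of 33 matrix genes of which 25 were tested. In shHIF2a cells 8 were higher and 2 lower, in shJUNs cells 8 were higher and 1 lower, and in shYAP/TAZ cells 13 were higher and 4 lower than in parental cells. The shares of all tested genes that were higher were 9.84% for shHIF2a, 10.3% for shJUNs and 13% for shYAP/TAZ, and the shares that were lower were 8.8%, 8.93% and 12.3%. The median log2 change was 0.01, 0.54 and 0.78 for shHIF2a, shJUNs and shYAP/TAZ. The 4 fibroblast markers, some of them matrix genes themselves, summed to 180, 157 and 106 counts in shHIF2a libraries, 165, 128 and 126 in shJUNs, 97, 111 and 167 in shYAP/TAZ and 69, 115 and 130 in parental libraries, and their part in these counts was not tested. TNC, which encodes tenascin-C, had 84.6, 60.6 and 62.1 CPM in shHIF2a libraries, 242, 222 and 255 CPM in shJUNs libraries, 208, 268 and 262 CPM in shYAP/TAZ libraries, and 7.30, 7.28 and 9.01 CPM in parental libraries. That was 8.74-fold higher in shHIF2a (edgeR adjusted p = 6.76e-10), 30.3-fold higher in shJUNs (adjusted p = 3.41e-13) and 31.1-fold higher in shYAP/TAZ cells (adjusted p = 1.00e-13), a larger fold in each comparison than that of any of the 9 tested subunits.

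FN1, fibronectin, averaged 1029 ± 159, 794 ± 41.2 and 1525 ± 144 CPM in shHIF2a, shJUNs and shYAP/TAZ cells and 488 ± 38.7 CPM in parental cells (SD, n = 3 each), and rose by 1.07, 0.70 and 1.64 on the log2 scale (edgeR adjusted p = 1.85e-06, 0.000274 and 1.58e-09). The basement membrane collagen COL4A1 averaged 870 ± 209 CPM in shHIF2a cells, 834 ± 37.2 CPM in shJUNs cells, 242 ± 44.0 CPM in shYAP/TAZ cells and 308 ± 42.0 CPM in parental cells. It rose 2.83-fold in shHIF2a (edgeR adjusted p = 1.42e-06) and 2.71-fold in shJUNs cells (1.91e-06), and its log2 difference of -0.35 in shYAP/TAZ cells missed the threshold (adjusted p = 0.128). Its chain partner COL4A2 rose in the same pair (0.84 and 1.01, edgeR adjusted p = 0.00142 and 0.000234) and fell in shYAP/TAZ cells (-0.62, 0.0112). COL6A3, a collagen VI chain, averaged 7.94 CPM in shHIF2a cells, 7.89 CPM in shJUNs cells, 119 CPM in shYAP/TAZ cells and 6.13 CPM in parental cells, and rose 19.4-fold in shYAP/TAZ cells (edgeR adjusted p = 1.58e-09). COL6A1, another chain of collagen VI, rose in shJUNs (log2 1.11, edgeR adjusted p = 0.00158) and shYAP/TAZ cells (1.77, 7.25e-06), and its difference in shHIF2a cells was -0.62 (adjusted p = 0.0835; -0.87 and 0.0373 without shHIF2a replicate 1).

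Inside the cell, integrin tails are bound by activators, adaptors and kinases, and 29 of 31 such genes were tested. In shHIF2a cells 6 rose and 4 fell, in shJUNs cells 11 rose and 3 fell, and in shYAP/TAZ cells 10 rose and 3 fell, with median log2 changes of 0.15, 0.15 and 0.26. The share of all tested genes that changed was 18.6%, 19.3% and 25.3% in these comparisons. ACTN1, the actin crosslinker alpha-actinin 1, averaged 323, 434 and 558 CPM in shHIF2a, shJUNs and shYAP/TAZ cells and 217 CPM in parental cells, and rose by 0.57, 1.00 and 1.36 on the log2 scale (edgeR adjusted p = 0.00895, 4.76e-05 and 5.21e-07). VCL, vinculin, averaged 276, 397 and 301 CPM in the knockdown groups in that order and 200.2 CPM in parental cells. It rose by 0.46, 0.99 and 0.59 (edgeR adjusted p = 0.0185, 1.80e-05 and 0.0024), of which the shHIF2a call was lost without parental replicate 2 (adjusted p = 0.0626) or 3 (0.0569) or shHIF2a replicate 1 (0.0901) or 2 (0.0886).

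RSU1, a partner of the PINCH adaptors, rose by 0.84 in shHIF2a, 1.09 in shJUNs and 0.65 in shYAP/TAZ cells (edgeR adjusted p = 0.000412, 2.05e-05 and 0.00257). LIMS1, which encodes PINCH1, was lower in shHIF2a cells (log2 -0.58, edgeR adjusted p = 0.0106; 0.055 without parental replicate 3) and higher in shYAP/TAZ cells (0.66, 0.00233). APBB1IP, which encodes the RIAM adaptor that brings talin to integrins, averaged 145, 105 and 27.0 CPM in shHIF2a, shJUNs and shYAP/TAZ cells and 121 CPM in parental cells, and fell 4.62-fold in shYAP/TAZ cells (edgeR adjusted p = 9.33e-07). FERMT1, the kindlin-1 gene, had 1 count in the shHIF2a group, 46 in shJUNs, 176 in shYAP/TAZ and 0 in the parental group. Its level was thus at least 12.3-fold higher in shJUNs cells and at least 61.6-fold higher in shYAP/TAZ cells, on a floor of 3 counts over the parental group (edgeR adjusted p = 0.000486 and 3.76e-06).

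Of 13 membrane partners and hemidesmosome genes 12 were tested. In shHIF2a cells 0 were higher and 4 lower, in shJUNs cells 1 was higher and 2 lower, and in shYAP/TAZ cells 1 was higher and 1 lower. With 18.6%, 19.3% and 25.3% of all tested genes changed, counts this small do not set the list apart. SLC3A2, the CD98 heavy chain that binds beta tails, had 161, 184 and 242 CPM in shHIF2a libraries, 279, 300 and 265 CPM in shJUNs libraries, 129, 86.2 and 136 CPM in shYAP/TAZ libraries, and 404, 467 and 447 CPM in parental libraries. Parental libraries were the highest 3, and SLC3A2 was lower by edgeR in shHIF2a (log2 -1.17, adjusted p = 4.81e-05), shJUNs (-0.64, 0.00873; -0.60 and 0.0523 without shJUNs replicate 3) and shYAP/TAZ cells (-1.91, 3.87e-08). CAV1, caveolin-1, fell in shHIF2a cells (log2 -0.50, edgeR adjusted p = 0.00183) and rose in shJUNs cells (0.67, 7.88e-05); in shYAP/TAZ cells it had a log2 difference of 0.27 (adjusted p = 0.0624, and 0.0258 without shYAP/TAZ replicate 1). The tetraspanin gene CD82 fell in shHIF2a cells (log2 -0.84, edgeR adjusted p = 0.0351), as did the tetraspanin gene CD81 (-0.52, 0.0128). Leaving out parental replicate 1 or 3 or shHIF2a replicate 1 or 2 ended the CD82 call, with adjusted p from 0.0798 to 0.124, and leaving out shHIF2a replicate 3 ended the CD81 call (0.0704). PLEC, the hemidesmosome linker plectin, rose in shYAP/TAZ cells (log2 0.54, edgeR adjusted p = 0.0101). DST, another hemidesmosome plakin, had log2 differences of -0.29, -0.40 and 0.54 in the shHIF2a, shJUNs and shYAP/TAZ lines, none called; the last had an edgeR adjusted p of 0.0545, and of 0.00942 without shYAP/TAZ replicate 3 and 0.0495 without shHIF2a replicate 1.

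The list of latent TGF-beta and its binding proteins gave 6 tested genes of 9. Of these, 0 rose and 2 fell in shHIF2a, 0 rose and 1 fell in shJUNs, and 2 rose and 2 fell in shYAP/TAZ cells. Of all tested genes, 18.6%, 19.3% and 25.3% changed in these comparisons. TGFB1 had 26.9, 31.1 and 24.1 CPM in shHIF2a libraries, 21.0, 34.8 and 33.4 CPM in shJUNs libraries, 68.7, 66.3 and 37.2 CPM in shYAP/TAZ libraries, and 114, 116 and 65.6 CPM in parental libraries. It fell by edgeR in shHIF2a (log2 -1.85, adjusted p = 5.71e-05) and shJUNs cells (-1.73, 7.59e-05), whose libraries lay below every parental one. The fall in shYAP/TAZ cells, whose libraries overlapped the parental ones, was -0.79 (edgeR adjusted p = 0.0284), and it was lost without parental replicate 1 (0.107) or 2 (0.125) or shYAP/TAZ replicate 3 (0.128). TGFB2 fell in shYAP/TAZ cells (log2 -1.38, edgeR adjusted p = 0.000103).

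The latent TGF-beta binding protein gene LTBP4 averaged 1.67 CPM in shHIF2a cells, 6.64 CPM in shJUNs cells, 25.4 CPM in shYAP/TAZ cells and 7.18 CPM in parental cells. It rose in shYAP/TAZ cells (log2 1.80, edgeR adjusted p = 0.00712) and was lower in shHIF2a cells (-2.08, 0.0131), the second being lost without parental replicate 2 (0.101), shHIF2a replicate 1 (0.0637) or shHIF2a replicate 3 (0.054). LTBP2 averaged 10.8 CPM in shYAP/TAZ cells and 1.86 CPM in parental cells (log2 2.53, edgeR adjusted p = 0.0419), and lost its call without any 1 of 8 libraries, with adjusted p from 0.0507 to 0.130. LTBP1 stayed at 4.98 CPM or below in the mean of every group and passed in no comparison with parental cells.

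**Figure D5:**
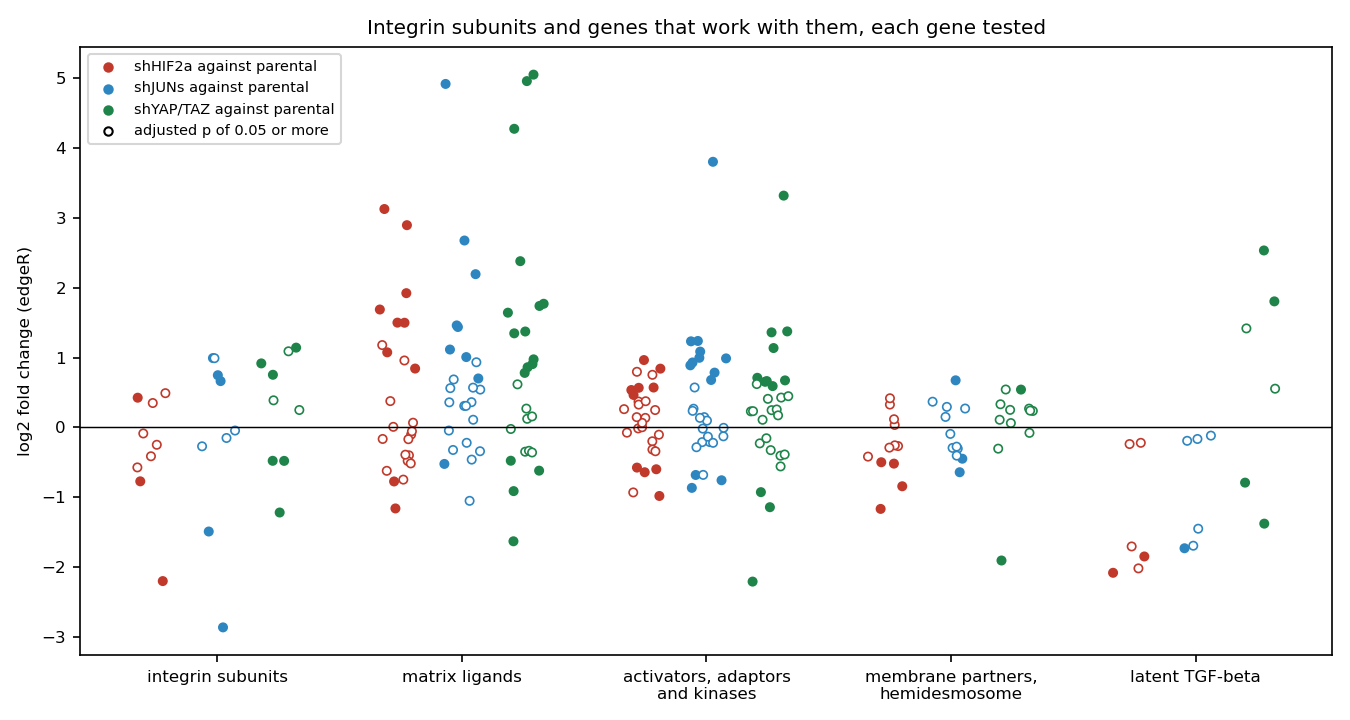
Log2 fold change (y axis, edgeR) of each tested gene of the integrin subunits and of 4 lists of genes that work with them (x axis), in shHIF2a, shJUNs and shYAP/TAZ cells against parental cells; each point is 1 gene, filled where the adjusted p was under 0.05, with FERMT1 left out because the parental libraries had 0 counts. The subunits lie between -2.86 and 1.14, and matrix ligands reach beyond them, as TNC does at 4.92 in shJUNs and 4.96 in shYAP/TAZ cells.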

How the data were processed

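BRB-seq libraries of 786-O cells, 3 for each of 4 groups, were analysed from the raw count table that the authors deposited: whole-number counts per gene, not normalized. Per the submitters' processing notes, Trim Galore, STAR and hg38 were used. The sources used here do not give the counting tool, its strand setting or the handling of molecular barcodes. Floors and ratios set on counts thus cover counting error only, while the SEs and 95% intervals include the spread between libraries. Of 62705 lines, 3 that hold 1 broken gene were left out. Groups came from the sample titles. The 10 subunits, the gene lists and the tests were chosen with earlier results of these data known.

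Counts were filtered by filterByExpr (minimum count 10), scaled by TMM and fitted with edgeR 4.0.16 in R 4.3.3 (robust quasi-likelihood, all 12 libraries, 1 mean per group), which left 12301 genes with a coefficient of variation of 25.1%. The procedure was tested on simulated data. The 6 pairwise contrasts and 1 test among the 4 groups were adjusted over all genes. Named genes were all 10 subunits, up to 6 genes of each list by smallest 4-group p, the 3 genes most alike to each of 3 subunits, overlapping genes with at least 3 counts, and the shRNA targets. Alternatives were other scalings, DESeq2 1.42.0, limma-voom (limma 3.58.1), other filters, 6 libraries, thinning, a replicate block and leaving out each library. Isoforms of a subunit were not separated. A further blood cell marker is not reported here.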

Additional observations from a re-analysis of the deposited data

How the results depend on the processing

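Of 9 subunits in 6 comparisons under 21 other settings, 1055 of the results kept direction and call, 33 lost a call, 28 gained one, 12 changed sign while not called, and no called result changed sign. In shYAP/TAZ against shHIF2a cells the number of subunits called was 3, against 5 with DESeq2, 1 with the 6 libraries of the comparison alone, 5 with the replicate block, and 1 to 4 when 1 library was left out (1 without shYAP/TAZ replicate 2). Genes called for shJUNs against parental cells numbered 2370, and 1518 to 2701 with 1 library left out (1518 without shJUNs replicate 3). For shJUNs against shHIF2a cells they numbered 926, against 1621 with 6 libraries and 471 to 1199 with 1 left out. For shYAP/TAZ against shJUNs cells they numbered 1985, and 1299 to 2199 with 1 left out. Of 18 pairs of same-numbered libraries 5 correlated above 0.1 (range -0.00955 to 0.22), after the group means were taken off. Every pair numbered 1 or 3 was at 0.0401 or above, while pairs with different numbers ran from -0.192 to 0.0356. Of 12 libraries 8 correlated best with their own number. Same-numbered libraries thus shared some variation, which the main fit left out and the replicate block took in. With the replicate block ITGA6 passed in shJUNs against parental cells (0.0312), and ITGA2 (0.0328) and ITGA3 (0.0246) in shYAP/TAZ against shHIF2a cells. The ITGAV call in shHIF2a cells was also lost with RLE size factors (adjusted p = 0.0532), limma-voom (0.0546), no filter (0.0900) and 6 libraries (0.0508), and the ITGA3 call in shYAP/TAZ against parental cells with 6 libraries (0.0576). In shYAP/TAZ against shHIF2a cells ITGB1 also lost its call with limma-voom (0.125), 6 libraries (0.0709) and thinning (0.0540), and ITGB3 with 6 libraries (0.0524) and thinning (0.0814). Calls were gained for ITGA6 in shJUNs against parental cells under 6 settings other than leaving out a library (0.0300 to 0.0483), for ITGA5 in shHIF2a against parental cells with DESeq2 (0.0463), in shYAP/TAZ against shHIF2a cells for ITGA2 with DESeq2 (0.0372), limma-voom (0.0240) and no filter (0.0207) and for ITGA3 with DESeq2 (0.0480), a 10 CPM filter (0.0470) and thinning (0.0419), and for ITGB1 in shYAP/TAZ against shJUNs cells with no filter (0.0244). Each of the ITGB8 and ITGB5 calls against parental cells held under all 21 settings. Of the listed genes, ITGB6 in shHIF2a (0.0579) and shYAP/TAZ cells (0.0577) and LTBP4 in shHIF2a cells (0.0747) lost their calls against parental cells with limma-voom, and PLEC (0.0557) and TGFB1 (0.0588) in shYAP/TAZ cells with 6 libraries. In shYAP/TAZ against parental cells COL4A1 gained a call with the replicate block (-0.36, adjusted p = 0.0248). CAV1 gained one with DESeq2 (0.0497), limma-voom (0.0458) and the replicate block (0.0359). DST did so with upper quartile scaling (0.0498), no filter (0.0477) and the replicate block (0.0332). The cause of these changes was not tested. ITGB4, at 0 to 11 counts per library, is limited by depth.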
